A study of Mus musculus with 10 samples.

Results

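Chromatin immunoprecipitation sequencing (ChIP-seq) on mouse skeletal muscle gave lists of peaks, that is, of stretches where sequenced fragments outnumbered those of input chromatin. The results concern promoters that carried a peak of lysine-specific demethylase 1 (LSD1) in fed mice and no peak of the glucocorticoid receptor (GR) in fed or in starved mice. These regions were chosen by position and by the lists themselves. An LSD1 fed peak was taken when its midpoint lay from 1 kb upstream to 100 bp downstream of a RefSeq transcription start site (TSS) and when no base of it was shared with a GR peak of either condition. Of 16616 LSD1 fed peaks, 5551 lay at a promoter, and 1668 of these had no GR peak. They made up 30.05% of the promoter peaks and 10.04% of all LSD1 fed peaks, and they belonged to 1626 genes. They are called never-GR promoters below. Of the other promoter peaks, 2264 were overlapped by a GR fed peak (fed-GR promoters), and 1619 by a GR peak in the starved list only (starved-GR promoters).

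All mice were C57BL/6J and, by the labels, 10 weeks old, and were either fed or starved for 24 h. GR, LSD1, histone H3 with 1 or 2 methyl groups on lysine 9 (H3K9me1, H3K9me2) and input chromatin had 1 library per condition, 10 libraries in all. The chromatin came from nuclei of whole muscle, so nuclei of other cell types in the tissue contributed to every list. With 1 library per antibody and condition there is no replicate check, and no p-value is given. The GR libraries carried another library code in the labels than the LSD1 libraries, so that antibody and code cannot be told apart. The H3K9me2 and H3K9me1 libraries carried the GR code when fed and the LSD1 code when starved. The depth of the libraries is unknown. LSD1 fed and GR fed peaks lay within 30 kb of a TSS of all 10 muscle markers examined (Acta1, Ckm, Myh1, Myh2, Myh4, Tnnt3, Ttn, Myod1, Mef2c and Des), GR starved peaks near 9 of them, all but Mef2c, and none of these genes had a never-GR promoter.

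LSD1, encoded by Kdm1a, removes methyl groups from mono- and dimethylated lysines of histone H3 and works in complexes with the scaffold CoREST and with histone deacetylases. GR is a transcription factor that binds DNA once glucocorticoids, which rise in fasting, have entered the cell, and in muscle it drives genes of protein breakdown. Promoters rich in CpG dinucleotides serve mostly genes that all cells use, such as those for ribosomes, mitochondria and proteasomes. Such promoters often hold short recognition sequences for the factors NRF1, SP1, NF-Y, YY1 and ETS proteins.

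Stretches of 6 never-GR promoters show the kinds of sequence found there. All are from GRCm38, outside annotated exons, and run 5′ to 3′ on the strand of the gene. Capitals mark a match to the NRF1 motif in the first 3 and to the CCAAT box in Zfp759, and the last 2 hold none of the 10 motifs searched. Exog (on the other strand) and Stx12 also hold a CCAAT box, left in lower case. Exog, a mitochondrial nuclease, is shown at chr9:119444835-119444944 (plus strand), Stx12, a syntaxin of endosomes, at chr4:132884465-132884574 (minus strand), and Shmt2, a mitochondrial enzyme of serine metabolism, at chr10:127522445-127522513 (minus strand). Zfp759, a zinc finger gene, is shown at chr13:67128119-67128178 (plus strand), Zim1, an imprinted zinc finger gene, at chr7:6696433-6696575 (minus strand), and Ptprk, a receptor tyrosine phosphatase, at chr10:28074717-28074819 (plus strand).
Exog: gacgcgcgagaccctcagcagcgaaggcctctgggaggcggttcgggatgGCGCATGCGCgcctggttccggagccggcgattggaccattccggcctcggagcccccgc
Stx12: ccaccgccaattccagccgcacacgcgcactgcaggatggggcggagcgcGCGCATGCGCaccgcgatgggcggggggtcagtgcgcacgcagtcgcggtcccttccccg
Shmt2: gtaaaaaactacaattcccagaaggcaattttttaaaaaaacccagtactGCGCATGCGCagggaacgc
Zfp759: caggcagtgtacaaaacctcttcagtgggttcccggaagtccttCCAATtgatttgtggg
Zim1: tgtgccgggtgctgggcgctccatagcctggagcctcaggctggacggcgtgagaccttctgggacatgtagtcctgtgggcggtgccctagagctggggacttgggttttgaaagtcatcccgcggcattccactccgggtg
Ptprk: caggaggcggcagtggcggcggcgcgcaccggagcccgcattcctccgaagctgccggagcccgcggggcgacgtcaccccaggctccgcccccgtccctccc

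The LSD1 fed peaks at never-GR promoters were short and modest in enrichment. Their length ran from 55 to 1084 bp, with a median of 173 bp and quartiles of 101 and 265 bp. The fold enrichment over input ran from 2.92 to 6.82 with a median of 3.91, and the median q-value, the authors' false discovery rate of a peak, was 0.0172. A q-value of 0.01 or less was reached by 576 never-GR promoters (34.5%). Starved-GR promoters had a median length of 227 bp, a median fold of 3.98 and a median q-value of 0.0123. Fed-GR promoters had 296 bp, 4.03-fold and 0.00942. The shortest length in the list, 55 bp, was held by 143 never-GR promoters (8.57%), against 4.63% of starved-GR and 2.34% of fed-GR promoters. Length and enrichment come from the list that defined the regions, and a longer peak has more bases to share with a GR peak, so these values describe the groups and test nothing.

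**Figure D1:**
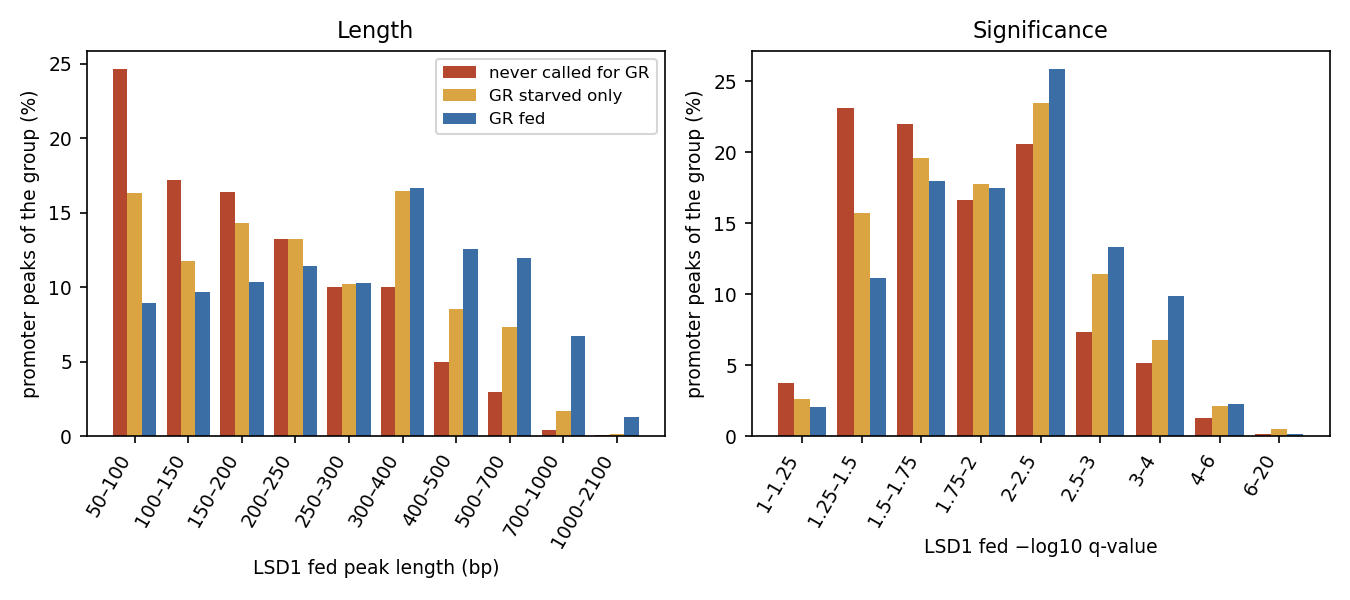
Share of LSD1 promoter peaks of each group (vertical axis, %) by the length of the LSD1 fed peak in bp (left) and by its −log10 q-value (right), for 1668 never-GR, 1619 starved-GR and 2264 fed-GR promoters. Bars of the never-GR promoters lie to the left of the others on both axes, with a median length of 173 bp.

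The 10 never-GR promoters of highest LSD1 significance with under 50% repeat sequence had folds from 4.00 to 6.82. The highest was Arid3a, a DNA-binding protein of the ARID family, with a peak of 61 bp at chr10:79927023-79927083, whose midpoint lay 10 bp after the TSS (6.82-fold, q = 1.48e-07). Mat2b, a regulatory subunit of the enzyme that makes S-adenosylmethionine, followed with 6.34-fold (q = 6.45e-07) over 64 bp. Cnnm4, a magnesium transporter, had 6.11-fold (q = 1.98e-06), also over 64 bp. The called peaks of Arid3a, Mat2b and Cnnm4 were thus short, and the called length does not measure how much DNA was bound. Zfp759 had 5.66-fold, Zmym6, a zinc finger protein of the MYM family, 5.63-fold, Fam102b 5.60-fold, Zim1 5.50-fold, Btbd3 5.22-fold and H4c6, a histone H4 gene, 5.12-fold. The remaining gene of the 10, 2610005L07Rik, had a longer peak of 305 bp and the lowest fold, 4.00. Repeat sequence covered at least 50% of 36 never-GR promoters (2.16%), against 0.865% of starved-GR and 0.398% of fed-GR promoters. Trim29, of the TRIM family of ubiquitin ligases, reached 6.51-fold (q = 6.4e-07) over a peak of 58 bp that lay wholly in repeat sequence.

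Relative to the TSS, never-GR peaks had a median midpoint 78 bp upstream, with quartiles from 257 bp upstream to 10 bp downstream. The medians were 65 bp upstream at starved-GR and 76 bp upstream at fed-GR promoters. A midpoint more than 500 bp upstream was found at 12.8% of never-GR promoters, 5.99% of starved-GR and 7.46% of fed-GR promoters. Non-coding transcripts held 7.07% of the never-GR promoters, 6.98% of the starved-GR and 7.73% of the fed-GR promoters. A TSS of another gene on the other strand lay within 1 kb at 20.1% of never-GR promoters (exact 95% binomial interval 18.2 to 22.2%), 20.2% of starved-GR (18.3 to 22.2%) and 20.3% of fed-GR promoters (18.6 to 22.0%). The 3 intervals nearly coincided. Over all RefSeq start sites the share was 14.1%. All intervals given here cover counting error only, since neighbouring promoters are not independent.

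The distance to GR peaks varied over several orders of magnitude among never-GR promoters. This distance was used in choosing them and is given as a description. The nearest GR fed peak lay at a median of 31.3 kb and the nearest GR starved peak at 6.86 kb. Taking the nearer of both lists, the median was 5.24 kb, with quartiles of 339 bp and 22.7 kb. A GR peak of either list lay within 1 kb of 597 never-GR promoters (35.8%) and within 100 bp of 228 (13.7%). At the far end, 70 (4.20%) had no GR peak within 100 kb. Among the 1626 genes, 366 (22.5%) had the midpoint of a GR peak in the promoter window of one of their start sites beside the LSD1 peak. Each GR peak was credited to its nearest start site only, so this count is a lower bound. Of the 1626 genes, 150 (9.23%) also had another LSD1 promoter peak that was called for GR. A promoter without a shared base was therefore not always a gene without GR at its promoter.

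The members just inside the limit adjoined a GR peak without sharing a base. Among them were a peak of Arpc4, a subunit of the actin-nucleating ARP complex, at chr6:113377388-113377607 and one of Ptpn9, a tyrosine phosphatase, at chr9:56994964-56995018, both beside a GR starved peak. Just outside, an LSD1 peak of Arpc4 at chr6:113377885-113378114, one of Rps25, a ribosomal protein, and one of Smpd3, a sphingomyelinase, each shared 1 bp with a GR starved peak. Arpc4 thus had peaks on both sides of the limit. At the edges of the promoter window, the midpoint lay 999 bp upstream at Zmym5 and 100 bp downstream at Tomm34.

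**Figure D2:**
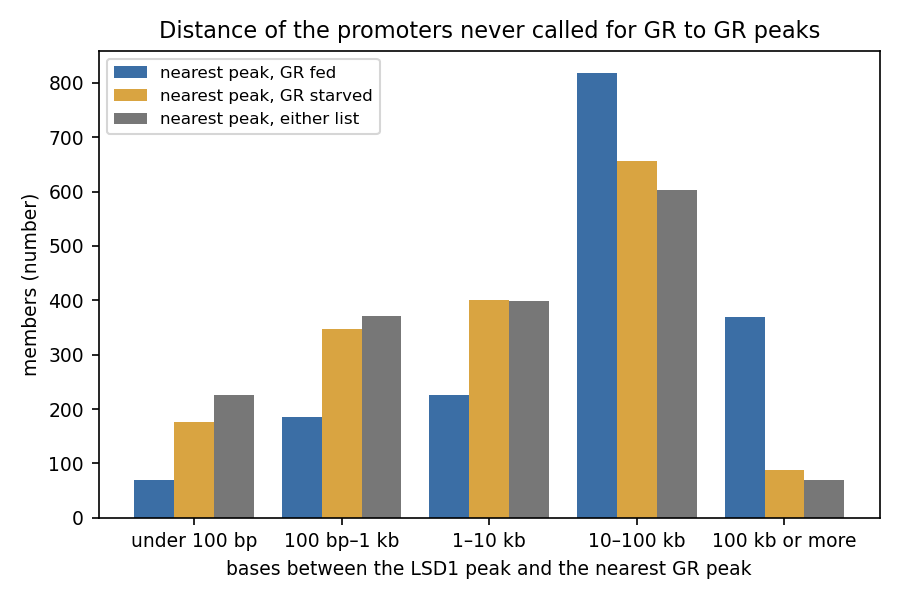
Number of never-GR promoters (vertical axis) by the bases between the LSD1 peak and the nearest GR fed peak, the nearest GR starved peak and the nearer of both (horizontal axis, bins of unequal width). For GR fed the fullest bin is 10 to 100 kb with 818 promoters, and 226 promoters had a GR peak of either list under 100 bp away.

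The X chromosome held few LSD1 promoter peaks, and most of them were never called for GR. Of 40 such peaks on X, 30 were never-GR (75%, exact 95% interval 58.8 to 87.3%), against 1636 of 5508 on the autosomes (29.7%, 28.5 to 30.9%). The X-linked members lay at a median of 99.6 kb from the nearest GR peak, compared with 5.12 kb for the autosomal ones. Their LSD1 peaks were short, with a median of 95 bp against 174 bp. The share of all peaks that fell on X was nearly the same for GR fed (0.695%) and LSD1 fed (0.698%), and it was 0.498% for GR starved, while 4.21% of RefSeq start sites are on X. The mice were male by the paper's account, so X differs from the autosomes in copy number. Whether this affects the calls on X was not tested. All 5 never-GR promoters farthest from GR were X-linked. Gk, glycerol kinase, had an LSD1 fed peak of 5.27-fold (q = 0.000145) with the nearest GR peak 1461 kb away, and Firre, a long non-coding RNA of nuclear architecture, had 4.19-fold at 1338 kb. Ids, a lysosomal sulfatase, Asb12, a substrate adaptor of ubiquitin ligases, and Magee1 of the MAGE family followed at 1280, 1103 and 1066 kb, with 3.98-, 3.57- and 3.80-fold. Chromosome 13, which carries the main cluster of histone genes and clusters of zinc finger genes, stood above the other autosomes with 92 of 212 promoter peaks (43.4%, 36.6 to 50.4%). Of these 92, 10 lay at histone genes and 8 at zinc finger genes, and most lay at neither. Whether these gene clusters account for the higher share was not tested.

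The LSD1 library of starved muscle and the histone mark libraries were not used in choosing the members. They shared the input library of their condition with the GR libraries, so their peak calls are not fully independent of the GR calls. The deposited LSD1 starved list held 66332 peaks, more than the 16616 of the fed list, whereas the study's text describes fewer starved than fed peaks, so shares with it hold for the deposited list only. A peak of LSD1 starved overlapped 312 of 1668 never-GR promoters (18.7%, exact 95% interval 16.9 to 20.7%), whereas 35.1% of all LSD1 fed promoter peaks were overlapped. The share was 36.1% (33.8 to 38.5%) at starved-GR promoters and 46.5% (44.4 to 48.6%) at fed-GR promoters, so the intervals of the 3 groups did not overlap. Because longer peaks are met more often, the shares were also compared within LSD1 fed peaks of 150 to 300 bp. There they were 17.4% (14.6 to 20.5%) of 666 never-GR, 34.8% (31.0 to 38.7%) of 612 starved-GR and 37.1% (33.6 to 40.7%) of 731 fed-GR promoters. Within this range the never-GR interval lay below those of both other groups, whose intervals overlapped each other. The median lengths in the range were 212, 216 and 224 bp, so lengths were close but not equal. In windows of 300 bp around each midpoint the shares were 21.0%, 37.7% and 46.2%. With LSD1 fed q-values no higher than 0.01 they came to 22.9%, 38.9% and 53.4%. When the starved peaks had to reach a q-value of 0.01 or less, far fewer promoters were met, 4.14% (3.23 to 5.21%) of never-GR, 7.78% (6.52 to 9.20%) of starved-GR and 11.6% (10.3 to 12.96%) of fed-GR promoters, beside 8.23% of all.

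The starved peaks that did overlap never-GR promoters had a median fold of 3.50, close to the 3.51 at both other groups, and 69 of the 312 (22.1%) had a q-value of 0.01 or less. The strongest lay at Gnb5, a G protein beta subunit (5.75-fold starved, q = 3.51e-08, and 5.25-fold fed), over 70 bp of wholly repeat sequence 778 bp upstream of the TSS. Ptprk had 4.54-fold in the fed and 5.59-fold in the starved list (q = 3.43e-06), and Kmt5b, a methyltransferase of histone H4, 4.62- and 5.57-fold (q = 4.14e-06). Tex14, a germ cell protein, had 4.67- and 4.79-fold. The zinc finger genes Zfp131 and Zfp523 had 3.37- and 4.11-fold in the fed list and 4.66- and 5.04-fold in the starved list. Cmtr2, an mRNA cap methyltransferase, had 3.96- and 4.86-fold, Sdr39u1 3.93- and 4.50-fold, Dipk1a 3.63- and 4.53-fold and the non-coding A330035P11Rik 4.11- and 4.94-fold. The starved fold was the higher in all 10, which were ranked by their starved q-value.

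H3K9me2 fed peaks also overlapped 312 never-GR promoters, of which 87 were among those overlapped by LSD1 starved. The share was 18.7% (16.9 to 20.7%), beside 27.3% of all LSD1 fed promoter peaks, 27.5% (25.3 to 29.7%) at starved-GR and 33.4% (31.5 to 35.4%) at fed-GR promoters. Within peaks of 150 to 300 bp the shares were 19.4% (16.4 to 22.6%), 26.8% (23.3 to 30.5%) and 30.2% (26.9 to 33.7%). H3K9me2, a substrate of LSD1 in some complexes, thus had its lowest share at never-GR promoters within this range of lengths too. With H3K9me2 q-values of 0.01 or less the shares were 4.38% (3.45 to 5.47%), 7.84% (6.58 to 9.26%) and 8.70% (7.57 to 9.94%), beside 7.15% of all. The overlapping H3K9me2 peaks were of like enrichment in the 3 groups, with median folds of 3.22, 3.24 and 3.23. Among never-GR promoters the mark was found at 27.9% of those with an LSD1 starved peak and at 16.6% of those without.

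The highest H3K9me2 fold at a never-GR promoter was 5.29 at Tmem254c (q = 1.27e-05), a gene with near-identical copies, so its value is uncertain where only uniquely mapped reads were kept. Agap1, an activator of ARF GTPases, had 4.92-fold, Hspa13, a chaperone of the endoplasmic reticulum, 4.85-fold, Scarna2, a small RNA of Cajal bodies, 4.81-fold and Wipi2, which binds lipids of forming autophagosomes, 4.65-fold. Their LSD1 folds in the fed list were 3.80, 4.06, 4.88, 4.22 and 4.07. Agap1, Hspa13, Scarna2 and Wipi2 also had an LSD1 starved peak, of 3.41-, 3.35-, 3.51- and 3.49-fold, and Tmem254c had none.

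The other mark lists met few promoters. H3K9me1 fed peaks overlapped 22 never-GR promoters (1.32%, 0.828 to 1.99%), beside 2.41% of all LSD1 fed promoter peaks and 3.58% (2.85 to 4.43%) at fed-GR promoters. H3K9me1 starved peaks overlapped 29 (1.74%, 1.17 to 2.49%), beside 2.56% of all and 3.22% (2.54 to 4.04%) at fed-GR promoters. Within 150 to 300 bp the H3K9me1 intervals of the 3 groups overlapped in both conditions. No never-GR promoter was overlapped by an H3K9me2 starved peak (0 of 1668, exact 95% interval 0 to 0.221%), where 0.036% of all LSD1 fed promoter peaks, 2 in number, were. The H3K9me2 starved list held 6624 peaks, against 171402 in the H3K9me2 fed list. With lists of such unlike size, a change of the mark between fed and starved muscle cannot be read from these shares. In all, 1101 never-GR promoters (66.01%) were overlapped by none of these 5 lists (LSD1 starved and the 4 mark lists), against 47.3% of starved-GR and 35.9% of fed-GR promoters. GR lists were left out of this count.

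**Figure D3:**
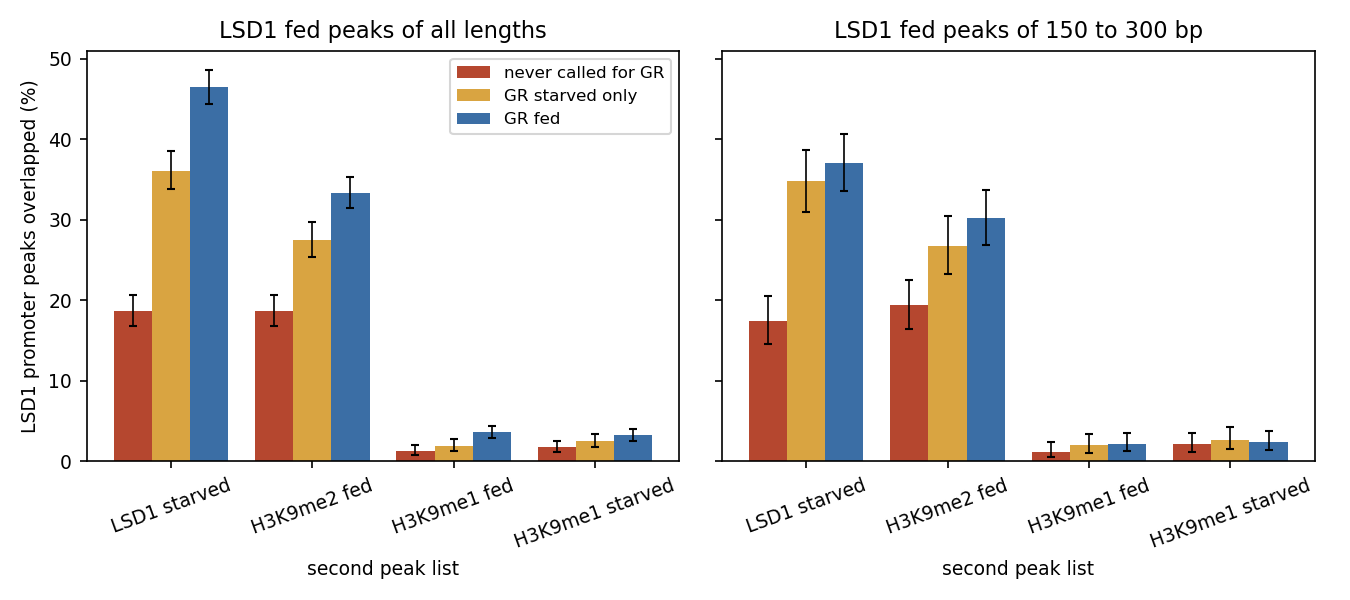
Share of LSD1 fed promoter peaks (vertical axis, %) overlapped by 1 bp or more by a peak of 4 lists that were not used in choosing the groups, for peaks of all lengths (left) and of 150 to 300 bp (right). Bars are shares and whiskers exact 95% binomial intervals. For LSD1 starved the never-GR bar is at 18.7% on the left and 17.4% on the right, below both other groups.

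The shares were also taken among never-GR promoters by their distance to GR. LSD1 starved peaks overlapped 16.2% (13.4 to 19.5%) of the 597 with a GR peak within 1 kb, 19.05% (15.3 to 23.3%) of the 399 at 1 to 10 kb and 21.3% (18.1 to 24.8%) of the 602 at 10 to 100 kb. For the 70 beyond 100 kb the share was 15.7% (8.11 to 26.4%). H3K9me2 fed peaks overlapped 15.4% (12.6 to 18.6%), 21.1% (17.2 to 25.4%), 21.3% (18.1 to 24.8%) and 11.4% (5.07 to 21.3%). The intervals of the 4 distance bins overlapped for both lists, and the median LSD1 peak length in these bins was 158, 192, 185 and 134 bp.

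Sequence was read in 300 bp windows centred on each midpoint. The median GC content of never-GR promoters was 64.0%, with quartiles of 56 and 70.7%, and both other groups had 65.3%. Windows with at least 50% GC and an observed to expected ratio of CpG of at least 0.6, the usual mark of a CpG island, made up 76.5% (74.4 to 78.5%) of never-GR, 84.1% (82.2 to 85.8%) of starved-GR and 79.5% (77.8 to 81.2%) of fed-GR promoters. Over 31603 RefSeq start sites, taken from 250 bp upstream to 50 bp downstream, the share was 41.3% and the median GC content 55.7%. Never-GR promoters were thus mostly of the CpG-rich kind, as were the other LSD1 promoters. The fixed windows of the RefSeq set lie at the TSS, whereas those of the peaks follow the midpoints.

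The letters of 10 motifs were searched on both strands. The NRF1 motif, GCGCATGCGC, was found without mismatch in 28 never-GR windows (1.68%, 1.12 to 2.42%), 2.10% (1.46 to 2.92%) of starved-GR, 2.25% (1.68 to 2.95%) of fed-GR windows and 1.09% of all RefSeq promoters. The intervals of the 3 LSD1 groups overlapped. Among the never-GR promoters with the motif and of highest LSD1 significance were Usf2, a factor that binds E-boxes (4.61-fold), Ppil4 (4.65-fold), the scaffold Caskin2 (4.07-fold), Exog (4.36-fold), Stx12 (4.10-fold), Spata5l1 (4.39-fold), the junction scaffold Magi1 (4.27-fold), Shmt2 (4.30-fold), Haghl (4.33-fold) and Dync1li1, a dynein subunit (4.10-fold). Of these 10, Usf2 and Dync1li1 had an LSD1 starved peak, and none had an H3K9me2 fed peak. A palindromic glucocorticoid response element, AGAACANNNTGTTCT with up to 1 mismatch, was found in 0 never-GR windows (exact 95% interval 0 to 0.221%), 1 starved-GR and 4 fed-GR windows, and in 0.139% of all promoters. The never-GR interval includes the share in all promoters, so at this number of windows no difference was detectable.

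The CCAAT box and the GC box were less frequent at never-GR promoters than in the other groups. CCAAT, which NF-Y binds, was found in 29.0% (26.8 to 31.2%) of never-GR, 36.0% (33.7 to 38.4%) of starved-GR and 37.9% (35.9 to 39.98%) of fed-GR windows, and in 37.3% of all promoters. This motif has only 5 letters, so a match is not evidence of NF-Y binding. Whether these shares differ from those expected by base composition was not tested. GGGGCGGGG, a GC box of the SP and KLF factors, was found in 18.4% (16.6 to 20.4%), 24.95% (22.9 to 27.1%) and 25.2% (23.4 to 27.0%), and in 14.3% of all promoters. In the CpG-rich windows alone the shares with CCAAT were 26.6% (24.2 to 29.2%), 35.9% (33.3 to 38.5%) and 38.6% (36.3 to 40.9%), and with the GC box 22.2% (19.9 to 24.6%), 27.6% (25.2 to 30.01%) and 28.5% (26.5 to 30.7%). With midpoints within 100 bp of the TSS, CCAAT was found in 26.9% (24.1 to 29.9%) of 913 never-GR, 36.3% (33.3 to 39.5%) of 974 starved-GR and 38.8% (36.1 to 41.5%) of 1266 fed-GR windows. Within this distance the never-GR interval for CCAAT lay below those of both other groups, while for the GC box the never-GR interval (19.7 to 25.2%) overlapped that of starved-GR promoters (24.0 to 29.7%) and just adjoined that of fed-GR promoters (25.2 to 30.2%).

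ACCGGAAGT of ETS factors was found in 2.28% of never-GR windows and 1.23% of all promoters, AAGATGGCG of YY1 in 3.00% and 1.67%, and TGACGTCA of CREB and ATF factors in 3.12% and 2.21%. The share with TGACGTCA was 4.45% at starved-GR and 2.25% at fed-GR promoters, and the never-GR interval (2.34 to 4.07%) overlapped both of theirs. CACGTG, the E-box of MYC, USF and CLOCK, was found in 8.45% of never-GR windows, 10.9% of starved-GR, 10.1% of fed-GR windows and 7.67% of all promoters. TGANTCA of FOS and JUN dimers was found in 3.42% (2.60 to 4.40%) of never-GR windows and 7.21% of all promoters, with 4.08% and 3.71% in the other groups. CTAAAAATA of the muscle factor MEF2 was found in 5 never-GR windows (0.300%) and 0.452% of all promoters. Matches of the motifs shared bases in few members, at most 5 for any pair (E-box and the FOS and JUN motif).

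**Figure D4:**
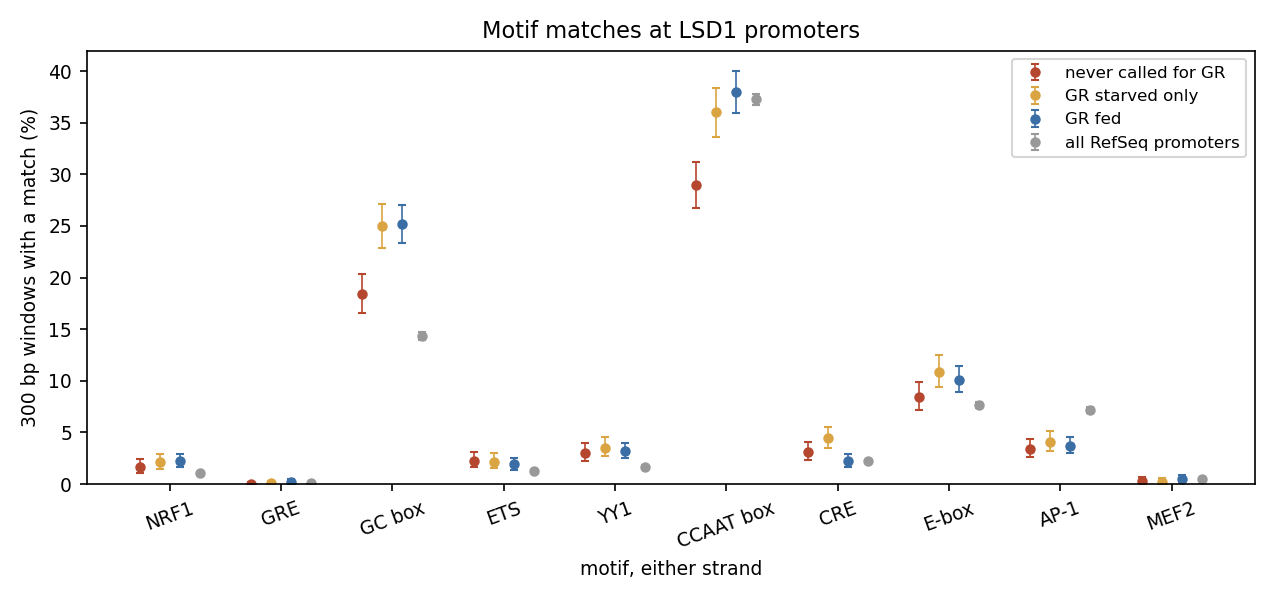
Share of 300 bp windows with a motif match on either strand (vertical axis, %) for never-GR, starved-GR and fed-GR promoters and for all RefSeq promoters. Points are shares and whiskers exact 95% binomial intervals. For the CCAAT box the never-GR point is at 29.0%, below the other 3, and for NRF1 the intervals of the LSD1 groups overlap.

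Genes were grouped in 33 lists by symbol. Of all 26180 RefSeq genes, 6.21% had a never-GR promoter, 6.04% a starved-GR and 8.37% a fed-GR promoter. A gene with promoters of several groups counts in each. Cytosolic ribosomal proteins, proteasome subunits and mitochondrial ribosomal proteins had more never-GR than fed-GR promoters. The counts were 19 never-GR, 17 starved-GR and 15 fed-GR of 109 cytosolic ribosomal protein genes, 8, 6 and 6 of 51 proteasome genes, and 12, 10 and 8 of 78 mitochondrial ribosomal protein genes. These counts differ by few genes. All 3 groups of promoters held such genes above their share of all genes, as LSD1 fed promoter peaks did as a whole, which were found at 45.9%, 39.2% and 37.2% of these lists and at 19.8% of all genes.

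Among ribosomal proteins, Rps3 had the strongest never-GR promoter (4.97-fold, q = 0.000294), with an LSD1 starved peak of 3.52-fold and an H3K9me2 fed peak of 3.71-fold. Rpl35a had 4.57-fold, Rpl13 4.44-fold and Rpl8 4.32-fold in the fed list. In mitochondrial ribosomes, Mrpl4 had 4.30-fold, Mrps12 4.24-fold, Mrps5 4.12-fold and Mrpl9 3.99-fold. Of the proteasome, Psma3 of the core particle had 4.96-fold, the activator Psme3 4.10-fold, and Psmd11 and Psmd1 of the regulatory particle 4.02- and 3.67-fold. Psmd11 was also in the LSD1 starved list (3.64-fold) and the H3K9me2 fed list (3.01-fold). Ubiquitin-conjugating enzymes, which pass ubiquitin to ligases, had 8 never-GR, 9 starved-GR and 5 fed-GR promoters among 38 genes, led by Ube2m (4.98-fold) and Ube2v2 (5.27-fold). The F-box substrate adaptors had 9, 8 and 11 of 78.

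Genes of the respiratory chain and ATP synthase had 14 never-GR, 11 starved-GR and 25 fed-GR promoters of 100. Fed-GR outnumbered never-GR promoters over all RefSeq genes too (8.37% and 6.21%). Of the genes with an LSD1 promoter peak, 29.8% had a never-GR promoter in this list and 31.4% over all genes. Sdhb of complex II had 5.00-fold over a wholly repetitive peak of 80 bp, Atp5h and Atp5l of ATP synthase 4.38- and 4.18-fold, and Ndufb6 of complex I 3.75-fold. Atp5h was met by LSD1 starved (3.28-fold) and H3K9me2 fed (3.48-fold). Mitochondrial protein import had 5, 3 and 3 of 29 genes, with Timm23, a channel of the inner membrane, at 4.30-fold and Tomm7 of the outer membrane at 3.89-fold. Aminoacyl-tRNA synthetases had 5, 3 and 8 of 37, where Cars2 and Nars2, both mitochondrial enzymes, had 5.00- and 4.56-fold.

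In the next 4 lists fed-GR promoters outnumbered never-GR ones. The same order held over all RefSeq genes (6.21% never-GR and 8.37% fed-GR) and in several of the lists that follow. The share of genes with a never-GR promoter was 10% for the circadian clock, 6.06% for nutrient sensing by mTORC1, 6% for insulin and IGF1 signalling and 15.6% for autophagy, beside 6.21% of all genes. The circadian clock list had 2 never-GR, 3 starved-GR and 10 fed-GR promoters among 20 genes. Clock, which activates E-box genes, had a never-GR promoter (3.91-fold, nearest GR peak 103 kb away), and Rora had 1 never-GR and 1 fed-GR promoter. Sensing of nutrients by mTORC1 had 2, 2 and 10 of 33 genes, with Itfg2 (4.12-fold) and Lamtor1 (3.41-fold) never called. Insulin and IGF1 signalling had 3, 6 and 11 of 50. Its never-GR promoters were those of Igf1r, the IGF1 receptor (4.10-fold), the lipid kinase Pik3c2a (3.77-fold) and Pik3r1, a regulatory subunit of phosphoinositide kinase (3.74-fold). A GR fed peak lay 255 bp from the Igf1r peak and a GR starved peak 78 bp from the Pik3r1 peak. The GR peak nearest to Pik3c2a was 134 kb away. Another LSD1 promoter peak of Pik3r1 was starved-GR. Autophagy genes had 5, 1 and 12 of 32. The never-GR ones were Wipi2, Atg10 (3.72-fold), Atg2a (3.76-fold), and Map1lc3a and Gabarapl2, which encode proteins of the autophagosome membrane (3.90- and 3.75-fold). Atg2a, Map1lc3a and Gabarapl2 each had an H3K9me2 fed peak, of 4.14-, 3.17- and 3.04-fold.

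Among 22 genes for LSD1, its complex subunits and related proteins, 7 had a never-GR promoter, 0 a starved-GR and 6 a fed-GR promoter. Over all genes the shares were 6.21%, 6.04% and 8.37%. An LSD1 promoter peak of any group was found at 13 of the 22 genes (59.1%), against 19.8% of all genes. For the lists of H3K9 methylation enzymes and of GR below, this share was 40% and 50%. Kdm1a itself was fed-GR, as was the CoREST scaffold Rcor1. Among the never-GR ones were the MYM zinc finger genes Zmym6 (5.63-fold), Zmym4 (4.25-fold) and Zmym5 (3.98-fold), Phf21a, a reader of unmodified histone H3 (4.22-fold), and the repressors Snai1 and Snai2, which recruit LSD1 to DNA (4.60- and 4.05-fold). Of those named, Snai1 alone was overlapped by an LSD1 starved peak (3.57-fold), and none had an H3K9me2 fed peak. Enzymes that write or remove H3K9 methylation had 4, 5 and 5 of 30. Both G9a-type methyltransferases were never-GR, Ehmt2 with 4.27-fold and an H3K9me2 fed peak of 3.20-fold (q = 0.0517 for the mark). Ehmt1 had a weak LSD1 peak of 3.44-fold (q = 0.0701). The others were Kdm3a, a demethylase (3.48-fold), and Prdm10 (3.60-fold). A GR starved peak lay 202 bp from the Kdm3a peak and a GR fed peak 28 bp from the Prdm10 peak. Kdm3a also had a fed-GR promoter peak. In the GR list, with 3, 5 and 6 of 22, the GR gene Nr3c1 had a never-GR promoter (4.23-fold fed and 3.35-fold starved LSD1, nearest GR peak 489 bp away) and another LSD1 promoter peak that was starved-GR. The coactivator Ncoa2 had 3.49-fold and the chromatin remodeller Smarca2, which also had a fed-GR promoter peak, 3.98-fold.

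Sarcomere and Z-disc genes had 5 never-GR (9.09%), 8 starved-GR and 14 fed-GR promoters of 55, beside 6.21% of all genes with a never-GR promoter. Mybpc2 and Tpm1, which bind myosin and actin filaments (4.53- and 4.26-fold), and the myosin light chain Myl1 (3.98-fold) also had a fed-GR promoter peak, while the myosin light chains Myl4 (4.34-fold) and Myl6b (3.70-fold) did not. Of 17 myogenic factors, 2 (11.8%), Mef2d (3.57-fold) and Srf (3.62-fold), were never-GR, with a GR peak 376 and 203 bp away. Srf carried an H3K9me2 fed peak of 3.78-fold and Mef2d an LSD1 starved peak of 3.36-fold.

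Of large families, 404 zinc finger genes had 45 never-GR, 41 starved-GR and 39 fed-GR promoters (11.1%, 10.1% and 9.65%). Zfp759, Zfp955a (5.09-fold), Zfp429 (4.60-fold) and Zfp407 (4.44-fold) led the never-GR ones. Among 103 histone genes the counts were 13, 9 and 9, with H4c6, H3c8 (4.29-fold), H2bc11 (4.18-fold) and H2bc18 (4.11-fold). Histone genes and zinc finger genes have close copies, so their calls are uncertain where only uniquely mapped reads were kept. Solute carriers, 382 genes for membrane transport, had 13, 21 and 36 (3.40%, 5.50% and 9.42%), below the 6.21% of all genes for never-GR promoters. Slc46a3 (4.48-fold) and the nucleotide sugar transporters Slc35e3 and Slc35d2 (4.09- and 4.02-fold) led them. The 1125 olfactory receptor genes had 0 in every group.

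For the remaining lists the counts are given in the order never-GR, starved-GR and fed-GR. Over all genes these shares were 6.21%, 6.04% and 8.37%. Among genes with an LSD1 promoter peak, 31.4% had a never-GR promoter. In the lists below this share ran from 8.33% for RNA polymerase subunits to 45.5% for TFIID and TAF proteins. Translation initiation factors had 7, 8 and 7 of 57 (Eif3j1, 5.49-fold, and Eif2b1, 4.60-fold). TRIM and RNF ubiquitin ligases had 14, 9 and 23 of 153 (Trim25, 4.86-fold), and RNA polymerase subunits 1, 6 and 5 of 28. Mediator subunits had 5, 5 and 5 of 31, among them Med7 with 4.35-fold in the fed and 4.19-fold in the starved LSD1 list. TFIID and TAF proteins had 5, 5 and 2 of 25, among them Taf13 with 3.94- and 4.09-fold. Splicing factors had 10, 5 and 12 of 61 (U2af1l4, 4.67-fold), nuclear pore proteins 2, 2 and 6 of 27, and genes of DNA replication and repair 12, 10 and 11 of 95 (Poln, 3.95-fold). Chaperones of the DNAJ and heat shock families had 8, 7 and 18 of 71 (Hspa13, 4.88-fold), vesicle sorting proteins 11, 14 and 7 of 75 (Vps54, 4.45-fold), RAB GTPases and their partners 9, 5 and 12 of 73 (Rab35, 5.34-fold), and subunits of the lysosomal proton pump 4, 4 and 4 of 24 (Atp6v1f, 4.29-fold).

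**Figure D5:**
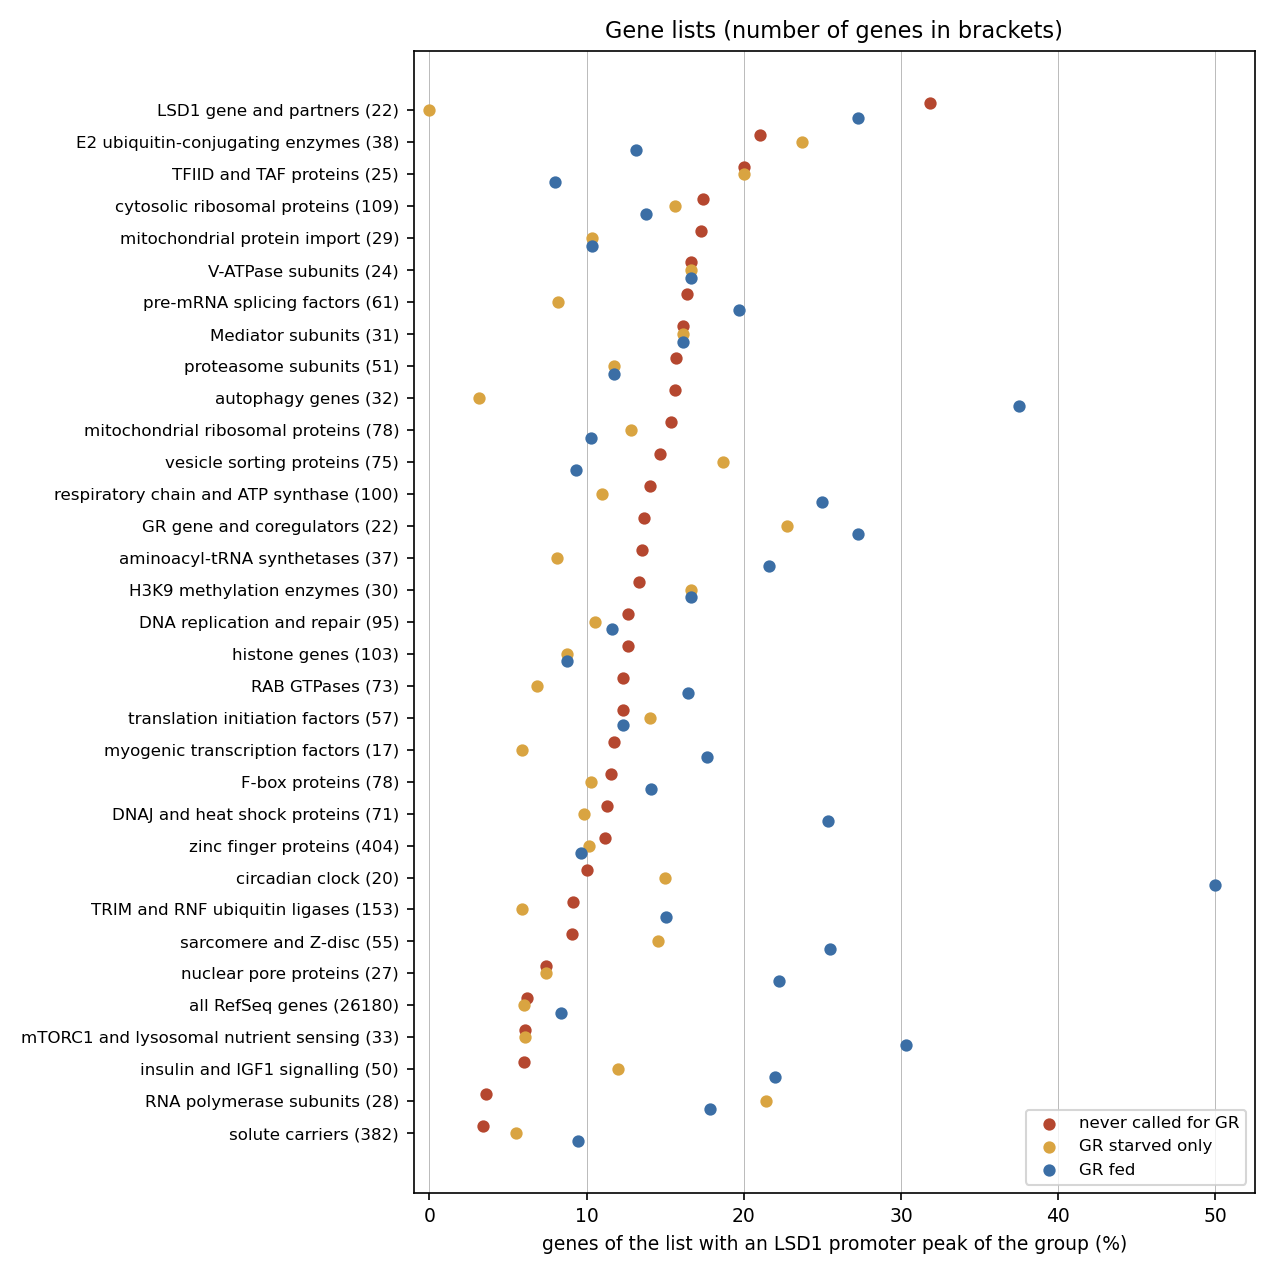
Share of the genes of each list (horizontal axis, %) with a never-GR, a starved-GR or a fed-GR promoter, for 32 lists and all RefSeq genes, with the number of genes in brackets. Lists are ordered by the never-GR share, from 3.40% of solute carriers to 31.8% of LSD1 and its partners, and the circadian clock has the highest fed-GR share at 50%.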

How the data were processed

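The authors mapped single-end reads to mm10 (GRCm38), kept uniquely mapped reads and called broad peaks per library with MACS2 against input. A human (hg38) blacklist was applied to the reads. Each of 8 deposited lists gave the ratio of signal over input (fold enrichment), the p-value and q-value as −log10, and a score, which was not used. The weakest deposited q-value in a list lay between 0.0925 and 0.0998, above the false discovery rate of 0.01 that the methods state. The LSD1 starved list of 66332 peaks is larger than the fed list and far larger than the study's text describes. Base calling used bcl2fastq 2.20.0.422, per the submitters' processing notes.

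Peaks were assigned to the nearest start site of curated RefSeq transcripts (45756 of 26180 genes) and compared by overlap of 1 bp or more. Intervals are exact Clopper-Pearson 95% intervals. Python 3.11.15, numpy 2.4.6, pandas 2.3.3 and scipy 1.17.1 were used, and overlap and distance functions were tested on simulated data. The members, gene lists and motifs were chosen with earlier results of these data known. Genes were named by LSD1 fed, LSD1 starved or H3K9me2 significance or fold, by the NRF1 motif or response element, by distance to GR, and up to 4 per list with at least 3 members. Further genes that complete a list's count were named after their values were seen. Some items that these rules name are not reported here.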

Additional observations from a re-analysis of the deposited data

How the results depend on the processing

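Of 80 comparisons of a main value with an alternative, 49 stayed within the main value's 95% interval, or within 1.5 times the main count, and 31 did not. The latter are given here, and their cause was not tested beyond what each setting removes or adds. With LSD1 fed q-values of 0.01 or less there were 576 members, LSD1 starved overlapped 22.9%, the median GC content was 65.0% and the median distance to GR 6.19 kb. With 0.001 or less there were 111 members, LSD1 starved overlapped 25.2% and H3K9me2 fed 14.4%, 0% held the NRF1 motif, 17.1% had a divergent TSS, and the distance was 8.87 kb. With GR q-values of 0.01 or less there were 2963 members, of which LSD1 starved overlapped 25.4% and H3K9me2 fed 22.0%. Their median distance, 0.075 kb, was still measured to all GR peaks, including the weaker ones left out by this setting. It is therefore not the distance to GR peaks of that threshold. At that threshold the LSD1 starved share was 44.1% at starved-GR and 47.9% at fed-GR promoters. Counting a GR peak within 500 bp of the midpoint gave 17.6% divergent and 12.1 kb. A window to 1 kb downstream gave 16.4% for H3K9me2 fed, 15.5% divergent, 64.7% GC and 3.73 kb. Peaks of 150 to 300 bp gave 666 members and 23.7% divergent. Second lists at a q-value of 0.01 or less gave 4.14% for LSD1 starved and 4.38% for H3K9me2 fed, and requiring 50% of the shorter peak to be shared gave 14.6% and 13.1%. Windows of 300 bp, chosen after seeing the data, gave 21.0% for both. With 1 mismatch 11.0% held the NRF1 motif, whole peaks had 64.5% GC, and 17.6% had a divergent TSS within 500 bp.

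The number of members moved with the thresholds of the LSD1 and GR lists, and the distance to GR with that of the LSD1 list. How the distance depends on the GR threshold was not tested. A promoter without a GR peak is one where none was called at these thresholds, in 1 library per condition of unknown depth. Broader or weaker GR signal there was not analysed here. Library code and antibody cannot be told apart.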
